A study of Mus musculus with 8 samples.

Results

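The genes described here encode the proteins that license replication origins and copy DNA at the replication fork. They were listed by name and role, 47 in all, and were grouped by the complex in which their proteins work. The list was chosen with earlier results of these data known. Of these 47, 45 matched a probe set, 1 each, among 19505 named genes on the arrays, while Mcm7 and Orc5 had no match and are not analysed here.

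The samples were CD4 and CD8 T cells taken from the spleens of 4 male wild-type C57BL/6 mice and stimulated in culture for 48 h with beads that carry antibodies to CD3 and CD28. In 4 samples the medium also held human beta-defensin-2 (hBD-2), a cationic antimicrobial peptide of epithelia, and in 4 it held phosphate-buffered saline (PBS), the vehicle. All 8 samples were therefore from activated cells, and the comparison asks what the peptide changes in them. The labels do not tie an array to a mouse, so p-values measure the spread between arrays, and the labels give the amount of peptide as a volume per volume, with no mass.

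Origin licensing takes place before S phase. The origin recognition complex, with Cdc6 and Cdt1, loads the ring-shaped MCM helicase onto DNA, and the kinase pair Cdc7 and Dbf4, with Ticrr, Cdc45 and the GINS complex, turns it into an active helicase. Primase and polymerase alpha then start each strand, the clamp loader RFC sets the PCNA clamp, and the polymerases delta and epsilon extend. Resting T cells hold little of this machinery and build it up after stimulation, and many of its genes are targets of E2F transcription factors.

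Each value is a log2 RMA value, which is a background-corrected and normalized probe set signal. Array medians lay between 5.30 and 5.42. The spread of values on an array, as its interquartile range, was 3.53 ± 0.0936 (SD, n = 4) on hBD-2 arrays and 3.68 ± 0.0549 on PBS arrays (exact permutation test, two-sided, p = 0.0571, where 0.0286 is the smallest that 4 against 4 can give). The narrowest ranges were 3.45 on hBD-2 replicates 3 and 4. T cell markers were high, and the 12 measured of 15 averaged 10.27 to 10.36 on hBD-2 arrays and 10.25 to 10.34 on PBS arrays. The 9 measured B cell markers averaged 4.71 to 6.02 on hBD-2 arrays and 4.57 to 5.495 on PBS arrays, and the 3 NK cell markers 3.37 to 3.77 and 3.53 to 3.90, near the arrays' lower quartiles of 3.62 to 3.78. The 3 were not alike. Group means of Ncr1 and Klrb1c were 2.89 to 3.01, and those of Klre1 were 4.68 on hBD-2 arrays and 5.32 on PBS arrays.

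Of the 45 replication genes, 7 fell in T cells kept with hBD-2 relative to those kept with PBS. They were the helicase subunits Mcm3 and Mcm5, the clamp loader subunits Rfc2 and Rfc3, the flap nuclease Fen1, and the chromatin genes Uhrf1 and Chaf1b (limma, Benjamini-Hochberg adjusted p under 0.05 over all 19505 genes). The falls ran from 1.35-fold (Fen1) to 1.85-fold (Chaf1b). These 7 make up 15.6% of the 45, against 3.66% of all genes tested that were lower at this threshold. None of the 45 rose, against 0.8% of all genes (4.46% of all genes were called in either direction), and at an unadjusted p under 0.05 limma gave 27 lower and 0 higher, against 12.8% and 9.44% of all genes. In bulk RNA, fewer cells of a type and less RNA per cell cannot be told apart.

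The direction was nearly uniform. The log2 fold change was below 0 for 44 of the 45 genes (40 or 41 after rescaling of the arrays), against 46.1% of all genes, and Orc2 was the exception. The median log2 fold change was -0.26 over the 45 genes and 0.02 over all 19505 genes. In 13 of the 45 genes (28.9%) every hBD-2 array lay below every PBS array, against 9.36% of all genes, and in 0 every hBD-2 array lay above, against 5.51%. All 45 genes were well expressed, from percentile 61.2 to 99.5 of mean level. Bright genes as a whole leaned the same way: of the 7516 other genes at or above the lowest level among the 45, 7.24% were lower, 19.7% had all hBD-2 arrays below all PBS arrays, and the median log2 fold change was -0.07. Of these 7516, 4716 had a log2 fold change below 0, and limma gave 1823 lower at an unadjusted p under 0.05. They are called other genes at the level of the 45 below, but their median level was lower, 7.78 against 8.48.

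**Figure D1:**
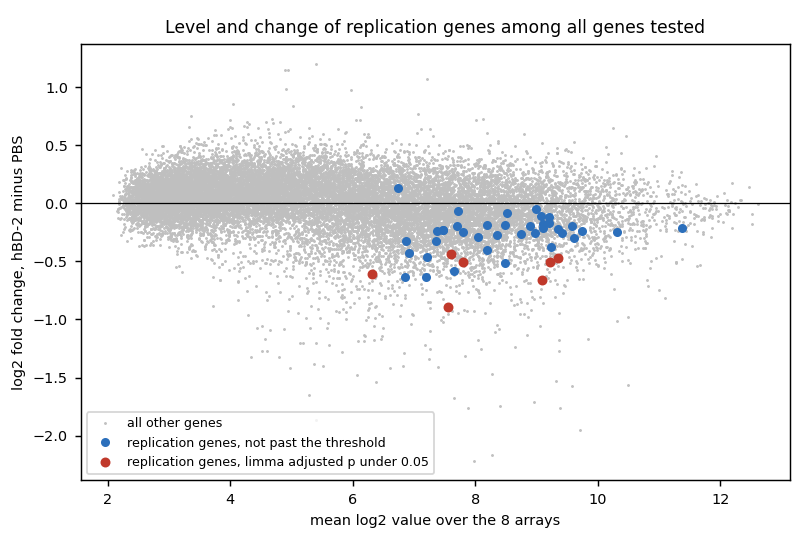
Log2 fold change, hBD-2 minus PBS, against the mean log2 value over the 8 arrays. Grey points are all other genes, and coloured points are the 45 replication genes, of which 44 lie below 0 (40 or 41 after rescaling of the arrays) and 7 passed the threshold.

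The number of calls depended on single arrays, each left out in turn, and on the fit. Only Mcm3 remained, 1 call, when hBD-2 replicate 3 or 4 or PBS replicate 1, 2 or 4 was left out. There were 5 calls without hBD-2 replicate 2 or PBS replicate 3, and 12 without hBD-2 replicate 1. Without hBD-2 replicates 3 and 4 together it was 0, with 9 lower and 0 higher at an unadjusted p under 0.05. With a variance trend in limma's estimate it was 22 of 45 (48.9%), against 7.99% of all genes. Rescaling the arrays gave 4 calls with quantile normalization, 4 with cyclic loess and 3 with equal interquartile ranges, and moved the median log2 fold change of the 45 genes to -0.17, -0.17 and -0.18. The log2 fold change of 26 of the 45 genes, none of them among the 7 that fell, moved by over 1.5 times or turned sign under at least 1 of the 3 rescalings. Orc4, Mcm10, Gins4, Prim1 and Pold2, all near 0, turned sign. Over all genes, 713 were lower and 156 higher, and quantile normalization gave 521 lower and 227 higher, cyclic loess 576 and 220, and equal interquartile ranges 551 and 197.

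**Figure D2:**
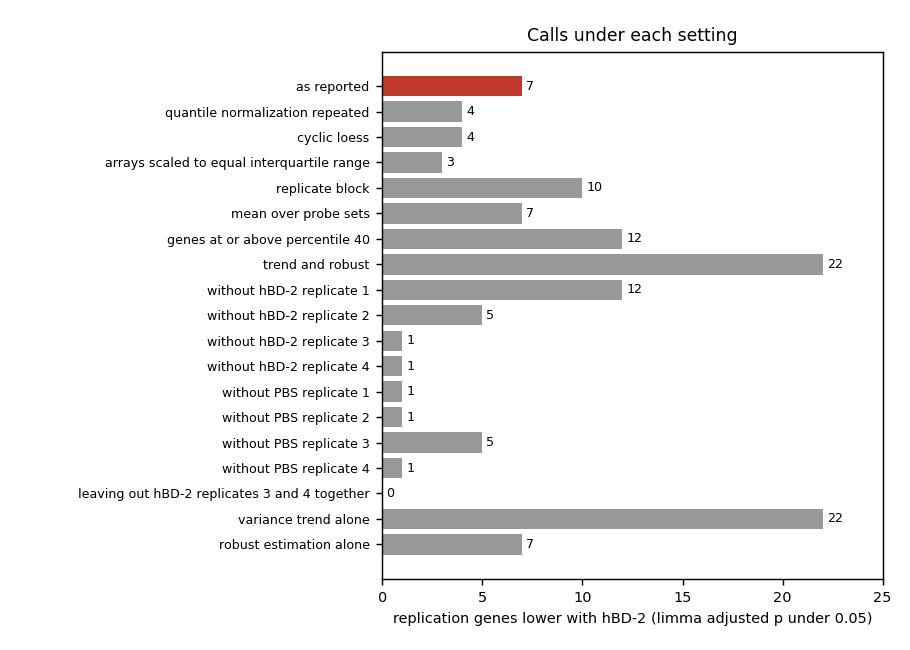
Number of the 45 replication genes lower with hBD-2 (limma adjusted p under 0.05) under each setting, with the reported fit in red. The count runs from 0 without hBD-2 replicates 3 and 4 to 22 with a variance trend.

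A promoter sequence (250 bases before to 50 after a RefSeq start, build GRCm38.p6) was listed for 38 of the 45 genes, 8 of them with several starts. Mcm4, Gins1, Gins2, Gins4, Rfc2, Pole and Prim2 had no entry. The sequences were searched on both strands for 4 words bound by E2F factors, TTTCCCGC, TTTCGCGC, TTTGCCGC and TTTGGCGC. Of these, TTTCGCGC and TTTGGCGC end in GCGC, where they can overlap each other on opposite strands. A word was found for 16 of the 38 genes (42.1%), against 3.38% of 15691 genes on the arrays with a promoter, and in 32.7% of 49 promoters of the 45 genes against 2.26% of all 32851 promoters. Among genes that fell, 4 of 6 with an entry held a word (Mcm3, Mcm5, Rfc3 and Uhrf1), and Fen1 and Chaf1b held none, against 12 of 32 for the other members. The box CCAAT was found for 63.2% of the 38 genes against 42.2%, and the element TTTGAA, found at mitotic genes, for 21.1% against 17.8%. A match is a description of the letters only.

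The promoter of Mcm3, the gene with the smallest p among the 45, is shown whole (chr1:20820263-20820562, minus strand), and stretches around the words are shown for other genes. All run 5′ to 3′ on the gene's strand, and capitals mark the E2F words. In Mcm3 the words begin at positions 20 and 39 after the start.
Mcm3: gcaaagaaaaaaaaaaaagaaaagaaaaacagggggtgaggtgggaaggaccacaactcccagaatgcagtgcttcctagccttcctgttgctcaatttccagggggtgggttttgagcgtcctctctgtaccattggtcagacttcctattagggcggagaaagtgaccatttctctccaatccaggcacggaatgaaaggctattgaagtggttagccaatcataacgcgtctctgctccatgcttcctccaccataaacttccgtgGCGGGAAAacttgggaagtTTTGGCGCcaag
Mcm5: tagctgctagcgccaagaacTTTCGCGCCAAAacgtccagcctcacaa
Rfc3: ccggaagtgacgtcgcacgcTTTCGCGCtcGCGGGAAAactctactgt
Uhrf1: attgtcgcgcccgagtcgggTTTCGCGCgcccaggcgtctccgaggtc
Mcm6: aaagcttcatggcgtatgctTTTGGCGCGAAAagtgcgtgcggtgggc
Orc1: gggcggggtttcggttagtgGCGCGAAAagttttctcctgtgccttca
Cdc6: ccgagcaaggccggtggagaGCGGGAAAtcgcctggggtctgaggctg
The stretch of Mcm5 is chr8:75109336-75109383 (plus strand), that of Rfc3 chr5:151651191-151651238 (minus) and that of Uhrf1 chr17:56304108-56304155 (plus). Those of the genes that did not pass the threshold are chr1:128359788-128359835 (minus) for Mcm6, chr4:108579407-108579454 (plus) for Orc1 and chr11:98907993-98908040 (plus) for Cdc6. Counted from the start, the first word shown begins at -153 in Mcm5, -10 in Rfc3, -185 in Uhrf1, -110 in Mcm6, -27 in Orc1 and -138 in Cdc6. Mcm5 and Mcm6 each hold a pair of words that share their GCGC, read on opposite strands. Mcm6 holds 3 words in all, more than any other of the 38 genes, and its log2 fold change was -0.25 (adjusted p in limma = 0.168).

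The helicase subunits were measured for 5 of 6 genes, and 2 of the 5 fell. Their median log2 fold change was -0.37, with a range of -0.66 to -0.19. Mcm3, whose protein sits in the helicase ring, read 8.97, 8.92, 8.44 and 8.67 on hBD-2 replicates 1 to 4, against 9.47, 9.44, 9.27 and 9.45 on PBS replicates 1 to 4. The groups lay 0.297 log2 units apart, with hBD-2 replicate 3 the lowest array. Mcm3 fell 1.58-fold (-0.66 on the log2 scale, SE 0.123, adjusted p in limma = 0.0131), and it passed in each of the 8 fits that left out 1 array (highest adjusted p = 0.0467) but not without hBD-2 replicates 3 and 4 together (0.113).

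Mcm5, the ring's partner of Mcm2 at the gate through which DNA enters, had 9.26, 9.36, 8.92 and 8.92 on the hBD-2 arrays and 9.60, 9.64, 9.52 and 9.57 on the PBS arrays. Replicates 3 and 4 of hBD-2 were lowest, and the PBS arrays lay close together. Mcm5 fell 1.39-fold (-0.47 on the log2 scale, SE 0.115, adjusted p in limma = 0.0432), a call lost with quantile normalization (0.0656), cyclic loess (0.0603), equal interquartile ranges (0.0811) and without hBD-2 replicate 3 or 4 or PBS replicate 1, 2, 3 or 4 (highest 0.116). Mcm2 had a log2 fold change of -0.37 (adjusted p in limma = 0.0702), and its groups did not overlap but lay 0.0047 units apart. Mcm6 and Mcm4 had log2 fold changes of -0.25 and -0.19 (adjusted p in limma = 0.168 and 0.266), which became -0.08 and -0.06 with equal interquartile ranges. Differences between subunits were not tested.

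**Figure D3:**
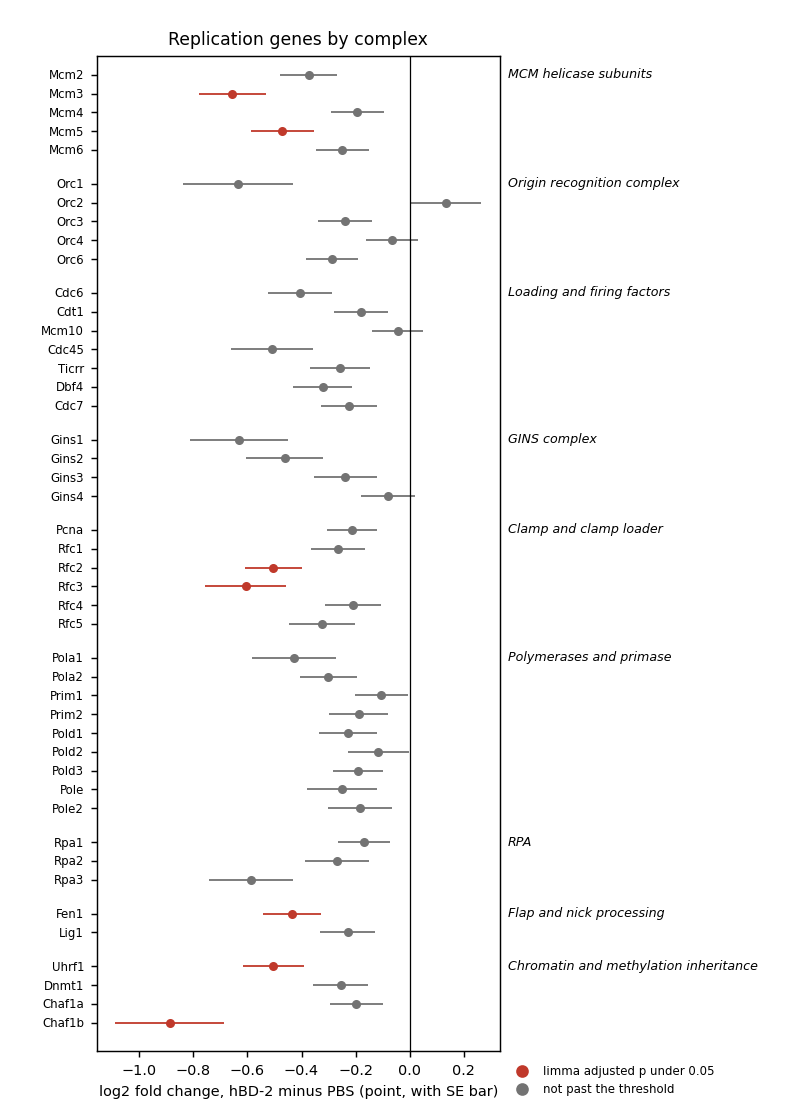
Log2 fold change, hBD-2 minus PBS, of each of the 45 genes, grouped by complex, with bars of 1 SE. Red points are the 7 genes past the threshold, Chaf1b lies farthest left at -0.89, and Orc2 alone lies right of 0, where 5 further genes near 0 came to lie under at least 1 rescaling.

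Of the origin recognition complex 5 of 6 genes were measured, and none passed. At an unadjusted p under 0.05 limma gave 3 of the 5 lower, against 12.8% of all genes. The smallest p was that of Orc1, the largest subunit and an ATPase. It read 7.30, 7.14, 6.56 and 6.49 on hBD-2 arrays and 7.89, 7.58, 7.10 and 7.46 on PBS arrays. PBS replicate 3 lay inside the hBD-2 range, and the log2 fold change was -0.64 (SE 0.204, adjusted p in limma = 0.100). Orc6 and Orc3 had log2 fold changes of -0.29 and -0.24 (adjusted p in limma = 0.111 and 0.186). Orc4 was at -0.06 (95% interval -0.28 to 0.15) and Orc2, a core subunit, at 0.13 (-0.15 to 0.42), and both intervals held 0. Orc3 was at -0.10 with equal interquartile ranges, and Orc4 at 0.03 with quantile normalization. Orc2 read 6.84, 7.09, 6.54 and 6.76 on hBD-2 arrays and 6.79, 6.60, 6.45 and 6.85 on PBS arrays, and the groups overlapped.

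Loading and firing factors were measured in all 7 genes. None passed (limma, 4 of the 7 lower at an unadjusted p under 0.05, against 12.8% of all genes). The median log2 fold change was -0.26. Cdc6, the ATPase that helps load the helicase, read 8.15, 8.18, 7.71 and 7.88 on hBD-2 arrays and 8.41, 8.51, 8.27 and 8.36 on PBS arrays. Every hBD-2 array was below every PBS array, with a log2 fold change of -0.40 (SE 0.119, adjusted p in limma = 0.0779). Cdc45, a part of the active helicase, was at -0.51 (adjusted p in limma = 0.0824) and the kinase activator Dbf4 at -0.32 (0.115). Ticrr, the firing factor also called treslin, was at -0.26 (0.200), the kinase Cdc7 at -0.22 (0.235) and the loader Cdt1 at -0.18 (0.305). Mcm10, a fork protein, was nearest to 0, at -0.04 (95% interval -0.25 to 0.16, adjusted p in limma = 0.821), and above 0 under each of the 3 rescalings, as was Gins4 of the next complex.

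GINS genes, whose proteins join Cdc45 and the MCM ring, had 0 of 4 past the threshold. At an unadjusted p under 0.05 limma gave 2 of the 4 lower, against 12.8% of all genes. Gins1 read 7.05, 6.64, 6.09 and 6.34 on hBD-2 arrays and 7.27, 7.38, 6.94 and 7.06 on PBS arrays. The groups overlapped through hBD-2 replicate 1, and the log2 fold change was -0.63 (SE 0.182, adjusted p in limma = 0.0743). Gins2, Gins3 and Gins4 were at -0.46, -0.24 and -0.08 (adjusted p in limma = 0.0903, 0.259 and 0.689).

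The clamp and its loader had 2 of 6 genes lower. Rfc2, a small subunit of the loader, read 7.78, 7.45, 7.47 and 7.48 on hBD-2 arrays, against 8.09, 8.17, 7.91 and 8.03 on PBS arrays. Replicates 2 to 4 of hBD-2 lay close together and replicate 1 stood higher, still below all PBS arrays. Rfc2 fell 1.42-fold (-0.50 on the log2 scale, SE 0.105, adjusted p in limma = 0.0229), a call kept under the 3 rescalings of the arrays (0.0412 at most) and lost without hBD-2 replicate 2, 3 or 4 or PBS replicate 1, 2 or 4 (highest 0.0780).

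Rfc3, another small subunit, read 6.26, 6.15, 5.95 and 5.71 on hBD-2 arrays, against 6.83, 6.68, 6.24 and 6.75 on PBS arrays. PBS replicate 3 lay just below hBD-2 replicate 1, so the groups overlapped. Rfc3 fell 1.52-fold (-0.61 on the log2 scale, SE 0.150, adjusted p in limma = 0.0449), and lost the call with quantile normalization (0.0599), cyclic loess (0.0519), equal interquartile ranges (0.0504) and without hBD-2 replicate 2, 3 or 4 or PBS replicate 1, 2 or 4 (highest 0.122). Rfc5, Rfc1 and Rfc4 had log2 fold changes of -0.32, -0.27 and -0.21 (adjusted p in limma = 0.146, 0.153 and 0.264). Pcna, the sliding clamp, was at -0.21 (SE 0.0927, adjusted p in limma = 0.200), with all hBD-2 arrays (11.10 to 11.38) below all PBS arrays (11.42 to 11.54). With equal interquartile ranges its difference vanished (adjusted p in limma = 0.997).

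Polymerase and primase genes had the median log2 fold change nearest to 0 among the complexes, -0.19 over 9 genes. None passed. At an unadjusted p under 0.05 limma gave 2 of the 9 lower, against 12.8% of all genes and 1823 of 7516 other genes at the level of the 45. All 9 were below 0, but Prim1 and Pold2 were at 0.01 and 0.004 with equal interquartile ranges. Pola2, the accessory subunit of polymerase alpha, read 9.59, 9.57, 9.19 and 9.45 on hBD-2 arrays and 9.72, 9.83, 9.69 and 9.78 on PBS arrays. These groups did not overlap, with a log2 fold change of -0.30 (SE 0.105, adjusted p in limma = 0.125), or -0.17 with equal interquartile ranges. Pola1, the catalytic subunit, was at -0.43 (adjusted p in limma = 0.139). The primase subunits Prim1 and Prim2 were at -0.10 and -0.19, the polymerase delta subunits Pold1, Pold2 and Pold3 at -0.23, -0.12 and -0.19, and the polymerase epsilon subunits Pole and Pole2 at -0.25 and -0.18, with adjusted p in limma from 0.234 (Pold1) to 0.584 (Pold2).

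RPA, the protein that coats single-stranded DNA, has 3 subunit genes. None passed (limma, 2 of the 3 lower at an unadjusted p under 0.05, against 12.8% of all genes). Rpa3, the smallest subunit, read 7.44, 7.81, 7.24 and 6.93 on hBD-2 arrays and 8.03, 7.99, 7.89 and 7.84 on PBS arrays. No hBD-2 array reached the PBS range, and the log2 fold change was -0.59 (SE 0.157, adjusted p in limma = 0.0579). Rpa2 and Rpa1 were at -0.27 and -0.17 (adjusted p in limma = 0.214 and 0.323).

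Of the genes that finish lagging-strand fragments, 1 of 2 fell. Fen1, the nuclease that trims flaps, read 7.53, 7.50, 7.25 and 7.22 on hBD-2 arrays, against 7.90, 7.94, 7.69 and 7.72 on PBS arrays. The groups lay 0.153 units apart. Fen1 fell 1.35-fold (-0.43 on the log2 scale, SE 0.108, adjusted p in limma = 0.0460), a call lost with quantile normalization (0.0668), cyclic loess (0.0665), equal interquartile ranges (0.0623) and without hBD-2 replicate 2, 3 or 4 or PBS replicate 1, 2, 3 or 4 (highest 0.127). Lig1, the ligase that seals the nick, was at -0.23 (adjusted p in limma = 0.215).

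Genes that restore chromatin and DNA methylation behind the fork had 2 of 4 members lower and the lowest median log2 fold change of the groups, -0.38. Chaf1b, a subunit of the histone chaperone CAF-1, read 7.64, 7.37, 6.49 and 6.95 on hBD-2 arrays, against 8.12, 8.05, 7.84 and 7.98 on PBS arrays. The hBD-2 arrays were spread over more than 1 unit, with replicates 3 and 4 lowest, and no PBS array reached down to them. Chaf1b fell 1.85-fold (-0.89 on the log2 scale, SE 0.201, adjusted p in limma = 0.0328), kept its call under the 3 rescalings (0.0428 at most) and lost it without hBD-2 replicate 3 or 4 or PBS replicate 1, 2 or 4 (highest 0.0941). Its partner Chaf1a was at -0.20 (adjusted p in limma = 0.265).

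Uhrf1, which brings the methyltransferase to newly copied DNA, read 9.14, 9.16, 8.74 and 8.81 on hBD-2 arrays, against 9.53, 9.43, 9.42 and 9.48 on PBS arrays. The groups lay 0.267 units apart, and the PBS arrays had an SD of 0.0479. Uhrf1 fell 1.42-fold (-0.50 on the log2 scale, SE 0.112, adjusted p in limma = 0.0304), a call lost with equal interquartile ranges (0.0531) and without hBD-2 replicate 3 or 4 or PBS replicate 1, 2, 3 or 4 (highest 0.0893). Dnmt1, the maintenance methyltransferase itself, was at -0.26 (adjusted p in limma = 0.170), with hBD-2 arrays at 9.08 to 9.45 and PBS arrays at 9.48 to 9.59, and it was at -0.13 with equal interquartile ranges.

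**Figure D4:**
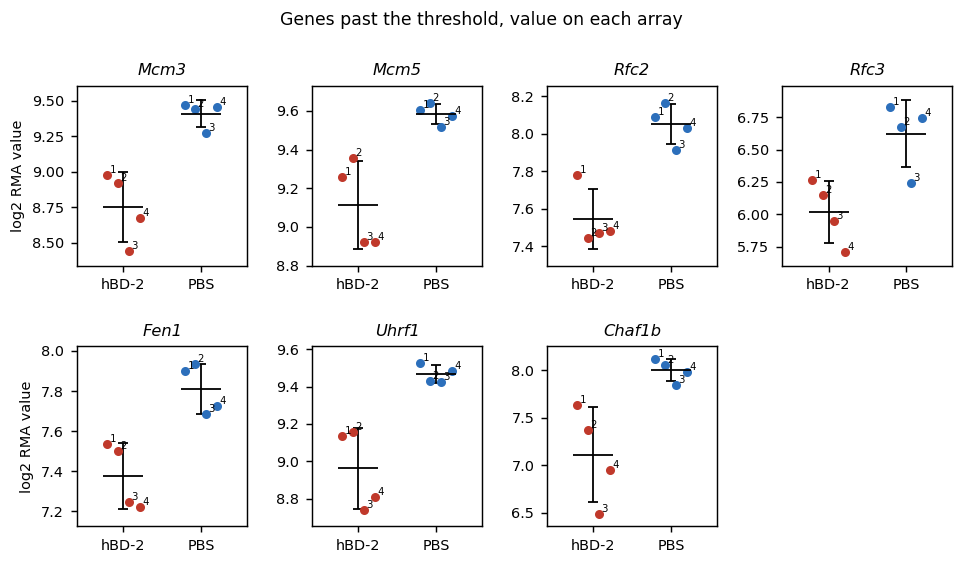
Log2 RMA value on each array of the 7 genes past the threshold, hBD-2 left and PBS right, with replicate numbers, the mean as a line and the SD as a bar (n = 4). Rfc3 is the gene whose groups overlap.

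Across arrays the 45 genes moved together. Averaged over the 45 genes, the deviation from each gene's mean over the 8 arrays was -0.001, -0.03, -0.33 and -0.26 on hBD-2 replicates 1 to 4, against 0.21, 0.18, 0.03 and 0.20 on PBS replicates 1 to 4. Replicates 1 and 2 of hBD-2 thus stood close to PBS replicate 3. The lowest of the 8 arrays was hBD-2 replicate 3 or 4 for 42 of 45 genes, and both of them lay below hBD-2 replicates 1 and 2 for 39. Within PBS, replicate 3 was lowest for 34 genes. The SD was larger in hBD-2 than in PBS for 37 of the 45.

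Other measures on the same arrays were set beside this order. Interquartile ranges were 3.64, 3.57, 3.45 and 3.45 on hBD-2 replicates 1 to 4 and 3.76, 3.65, 3.64 and 3.69 on PBS replicates 1 to 4. The low hBD-2 arrays, replicates 3 and 4, were also the narrow ones. PBS replicates 3 and 2 had nearly equal ranges, while their mean deviations over the 45 genes were 0.03 and 0.18. The part of this spread in the result was not tested beyond the rescalings above. The deviation of the 12 T cell markers lay between -0.04 and 0.05 on hBD-2 arrays and -0.05 and 0.04 on PBS arrays, and that of 13 ribosomal protein genes between -0.03 and 0.04 and between -0.02 and 0.02. B cell markers deviated by -0.44, 0.83, -0.48 and 0.74 on hBD-2 replicates 1 to 4 and by -0.62, 0.14, -0.47 and 0.31 on PBS replicates 1 to 4, an order unlike that of the replication genes. The 12 myeloid markers were at -0.12, -0.01, 0.10 and 0.12 and at -0.14, 0.13, -0.01 and -0.07 in the same order. Their log2 fold change was above 0 for 9 and below 0 for 3, with a median of 0.05. Only 1 of the 12 was called, Itgam, which was lower with hBD-2, against the direction of most of its list. The 4 measured erythroid markers deviated by -0.03, 0.03, 0.16 and 0.18 on hBD-2 replicates 1 to 4 and by -0.14, -0.001, 0.01 and -0.20 on PBS replicates 1 to 4, so their mean was highest on the arrays where the replication genes were lowest. Their mean level was 5.12 to 5.33 on hBD-2 arrays and 4.95 to 5.16 on PBS arrays, and 1 of them, the transcription factor Klf1, was called higher with hBD-2 (adjusted p in limma = 0.0441). The 4 did not all follow the order of their mean. Alas2 read 4.91, 4.74, 4.87 and 4.63 on hBD-2 replicates 1 to 4. The log2 fold change was above 0 for 3 of the 4 and below 0 for 1, Tspo2 (-0.02). The 3 NK cell markers deviated by 0.13, -0.15, -0.27 and -0.15 on hBD-2 arrays and by 0.16, -0.11, 0.13 and 0.26 on PBS arrays. Their log2 fold changes were -0.63 for Klre1 (adjusted p in limma = 0.0900), -0.08 for Ncr1 and 0.05 for Klrb1c. The part of these marker lists in the result was not tested.

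**Figure D5:**
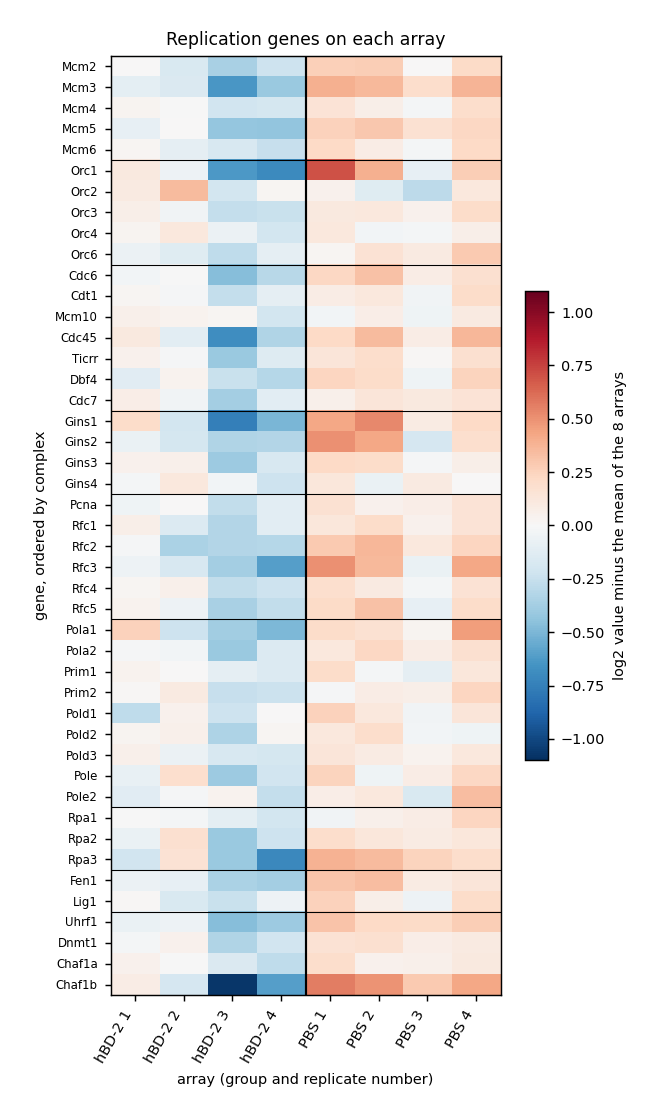
Log2 value of each of the 45 genes minus its mean over the 8 arrays, hBD-2 arrays left of the line and PBS arrays right. Blue fills most of hBD-2 replicates 3 and 4, while hBD-2 replicates 1 and 2 and PBS replicate 3 are pale.

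Further genes around the fork were taken from lists set by name, also chosen with earlier results of these data known. Of 28 other fork and licensing factors, 5 fell (17.9%, against 3.66% of all genes and 7.24% of other genes at the level of the 45) and none rose (0.8% of all genes), with a median log2 fold change of -0.19. Pclaf, which binds PCNA, fell 1.46-fold (9.15 ± 0.160 on hBD-2 arrays and 9.70 ± 0.0639 on PBS arrays, SD, n = 4, adjusted p in limma = 0.0121) and passed in all 8 fits without 1 array (highest 0.0475), but not without hBD-2 replicates 3 and 4 together (0.143). Asf1b, a histone chaperone that hands histones to CAF-1, fell 1.39-fold, and Wdhd1, a fork scaffold, fell 1.35-fold (adjusted p in limma = 0.0331 and 0.0362). Both calls were lost under the 3 rescalings of the arrays (Asf1b 0.0514 to 0.0755, Wdhd1 0.0554 to 0.0691), and in 6 and 5 of the 8 fits without 1 array (up to 0.0923 and 0.103). The other falling genes, Tipin (a fork protection factor, 1.34-fold) and Rnaseh2b (an RNase H2 subunit, 1.31-fold), were named after their values were seen.

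Genes of deoxynucleotide supply fell in 4 of 11 members (36.4%, against the same 3.66% and 7.24%) and none rose, with a median log2 fold change of -0.32. Dut, the enzyme that clears dUTP, read 6.88, 6.81, 6.64 and 6.65 on hBD-2 arrays, against 7.50, 7.55, 7.46 and 7.57 on PBS arrays. It fell 1.71-fold (-0.78 on the log2 scale, SE 0.0922, adjusted p in limma = 0.00112), and it passed under all 18 other settings, among them without hBD-2 replicates 3 and 4 (highest adjusted p in limma = 0.0237). Tyms, thymidylate synthase, fell 1.52-fold and Nme1, a nucleoside diphosphate kinase, 1.40-fold (adjusted p in limma = 0.0252 and 0.0319). Leaving out 1 array took the adjusted p up to 0.0764 for Tyms and 0.0960 for Nme1, and Nme1 was also lost with quantile normalization (0.0538) and equal interquartile ranges (0.0544). Dctd, the dCMP deaminase, fell 1.53-fold and was named after its values were seen.

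Among 20 E2F and G1/S regulators, 2 fell (10%, against 3.66% of all genes and 7.24% of those at the level of the 45). Of the 20, 1 rose (0.8% of all genes did), and the median log2 fold change was -0.13. Rbl2, the pocket protein p130 of quiescent cells, read 9.40, 9.28, 9.47 and 9.46 on hBD-2 arrays, against 8.87, 8.91, 9.01 and 9.08 on PBS arrays. It rose 1.35-fold (0.44 on the log2 scale, SE 0.0926, adjusted p in limma = 0.0252), a call kept under the 3 rescalings (0.0141 at most) and lost without hBD-2 replicate 3 or 4 or PBS replicate 1 or 2 (highest 0.0823). Cdk2, the S phase kinase, fell 1.39-fold and Skp2, the ubiquitin ligase subunit that degrades Cdkn1b, 1.43-fold (adjusted p in limma = 0.0382 and 0.0435), and both calls were lost under the 3 rescalings (Cdk2 0.0505 to 0.0772, Skp2 0.0542 to 0.0556) and in 6 of 8 fits each without 1 array (up to 0.106 and 0.121). E2f1, chosen after its values were seen, read 6.77, 6.82, 5.99 and 6.58 on hBD-2 arrays and 7.26, 7.13, 6.98 and 7.16 on PBS arrays, with a log2 fold change of -0.59 (SE 0.164, adjusted p in limma = 0.0646). Its groups did not overlap, and hBD-2 replicate 3 was the lowest array.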

How the data were processed

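Per the submitters' processing notes, the authors made the deposited log2 values with oligo and RMA from Affymetrix arrays. Both tools' versions were not given in sources used here, nor were settings. In all, 22203 probe sets were deposited for 8 arrays; of these, 19572 had 1 gene symbol in the platform's annotation and 2631 were not named. The probe set with the highest mean was kept for each gene, which left 19505 genes, none filtered for level. The number of arrays limits the precision.

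The groups were compared in R 4.3.3 by the lmFit and eBayes functions of limma 3.58.1, without a block. Tests were two-sided, and Benjamini-Hochberg adjustment ran over the 19505 genes (threshold 0.05). A log2 fold change is the hBD-2 mean less the PBS mean. All members are named. Arrays are shown singly for genes past the threshold and the smallest p of each complex, and up to 3 genes with the smallest p are named from each further list. The members and lists were chosen with earlier results of these data known. Tested on simulated data for hBD-2 against PBS with 19505 genes and 50 seeded genes a size, the fit recovered 10% of 1.25-fold, 62% of 1.5-fold, 92% of 2-fold and 100% of 3-fold changes. Of its 143 calls there, 11 were false.

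Alternatives were array rescaling, the replicate block, probe set averaging, a level filter at percentile 40, limma's trend and robust options, and leaving out arrays.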

Additional observations from a re-analysis of the deposited data

Results flagged for a closer look

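In 5 of 90 groups of 4 arrays (45 genes in 2 groups), 1 array stood apart from the other 3, measured as its gap to the nearest array over the group's whole range (Dixon's ratio, above its 95% critical value). That is 5.56%, and chance gives about 1 in 20. Rfc2 on hBD-2 replicate 1 was the highest of its group at 7.78, against 7.45 to 7.48 on the other hBD-2 arrays (ratio 0.898). Pold2 on hBD-2 replicate 3 was the lowest at 8.87, against 9.23 to 9.26 (ratio 0.918). Mcm10 on hBD-2 replicate 4 was the lowest at 8.79, against 9.01 to 9.04 (ratio 0.859). On PBS replicate 3, Dbf4 was the lowest at 6.82, against 7.08 to 7.12 on the other PBS arrays (ratio 0.867), and so was Mcm3 at 9.27, against 9.44 to 9.47 (ratio 0.833).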

How the results depend on the processing

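The median log2 fold change of the 45 genes stayed below 0 under all 18 other settings, and 40 to 44 genes lay below 0 in each. No member rose under any setting, also at an unadjusted p under 0.05. Of 810 values of single members under these settings, 712 kept their side of the threshold, 53 lost the call (7 genes), 45 gained it (15 genes) and 0 were called in the opposite direction. Members lower numbered 4 with quantile normalization, 4 with cyclic loess, 3 with equal interquartile ranges, 12 (of 1541 genes called) with genes at or above percentile 40 only, and 22 (of 2033) with trend and robust estimation. A variance trend alone, chosen after seeing the data, gave 22 (of 2032), and robust estimation alone, also chosen then, gave 7 (of 830). Without hBD-2 replicates 3 and 4 together there were 0 members among 128 genes called. Leaving out 1 array gave 1 to 12 members, 312 to 1396 genes called over the whole table and medians of -0.30 to -0.19. With fewer arrays or fewer genes the test itself changes, and other causes were not tested. The replicate number as a block gave 10 members among 857 genes called, against 7 among 869 without it. It added Orc1, Gins1 and Rpa3 (adjusted p in limma = 0.0198, 0.0265 and 0.0396), and among the other named genes it added Cdk1 (0.0414) and lost Blm (0.0536). Same-numbered arrays correlated in their deviations from the group means at 0.181, 0.0585, 0.159 and 0.00482 for numbers 1 to 4. Replicates 1, 2 and 3 of hBD-2 each correlated best with the PBS array of their own number, and replicate 4 with PBS replicate 3 (0.0906). Over the 45 genes alone, each hBD-2 array correlated best with a PBS array of another number. The labels do not tie an array to a mouse, so the numbers were not taken as pairs. The B cell markers deviated upwards on replicates 2 and 4 and downwards on replicates 1 and 3 in both groups. These values do not settle whether the numbers are pairs.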

Other observations

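Genes of the replication checkpoint and of fork repair, set by name with earlier results known, fell in 3 of 13 measured members. That is 23.1%, against 3.66% of all genes and 7.24% of other genes at the level of the 45. None rose (0.8% of all genes), and the median log2 fold change was -0.33. Fancd2, a Fanconi anaemia protein at stalled forks, read 6.94, 6.93, 6.54 and 6.74 on hBD-2 arrays, against 7.58, 7.43, 7.19 and 7.38 on PBS arrays, and fell 1.52-fold (adjusted p in limma = 0.0169). The checkpoint kinase gene Chek1 fell 1.41-fold and the helicase gene Blm 1.36-fold (adjusted p in limma = 0.0380 and 0.0427). Each lost its call when single arrays were left out (Fancd2 in 4 of 8 fits, Chek1 in 6 and Blm in 7). Blm also lost it under the 3 rescalings of the arrays (0.0589 to 0.0657), and Chek1 with quantile normalization (0.0516) and equal interquartile ranges (0.0541).

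None of 19 genes of mitosis and proliferation passed (limma, 9 lower at an unadjusted p under 0.05 and 0 higher, against 12.8% and 9.44% of all genes), with a median log2 fold change of -0.21. Among the 7516 other genes at the level of the 45, 1823 were lower at that unadjusted p. The log2 fold change was below 0 for 18 of the 19, against 46.1% of all genes. In 10 of them (52.6%) every hBD-2 array lay below every PBS array, against 9.36% of all genes and 19.7% of other genes at the level of the 45. In 1 every hBD-2 array lay above, against 5.51% of all genes. The smallest p-values were those of the mitotic kinase genes Aurkb, Cdk1 and Bub1, at -0.35, -0.45 and -0.41 (adjusted p in limma = 0.0562, 0.0635 and 0.0703). Mki67, chosen after its values were seen, stood at 11.15 to 11.19 on hBD-2 arrays and 11.06 to 11.13 on PBS arrays, all hBD-2 arrays above all PBS arrays, at a log2 fold change of 0.07 (adjusted p in limma = 0.671).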
